A study of Mus musculus with 4 samples.

Results

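The MYC and MLX network was followed through 10 genes, chosen by name from the 37620 genes of a raw count table: Myc, Mycn, Max, Mga, Mnt, Mxd4, Mlx and Mlxip, which encode transcription factors, and Txnip and Arrdc4, whose transcription reports glucose sensing by the partners of MLX. All 10 were found in the table and all 10 passed the filter on low counts, among 16264 tested genes. RNA was sequenced from WT_CTCF and MUT_CTCF mouse embryonic stem cells (mESCs), with 2 libraries per line. In both lines the endogenous CTCF carries an auxin-inducible degron and was to be replaced by CTCF from a vector, which was wild type in WT_CTCF and mutated at T668, the residue that takes O-GlcNAc, in MUT_CTCF cells. Each line was grown from a picked clone with exogenous CTCF near the endogenous level, so that a difference between clones and an effect of the mutation cannot be told apart. The cells were kept on gelatin in medium with serum and LIF. By the methods of the study, picked clones were kept in auxin to degrade endogenous CTCF before use, and the libraries of a line are biological replicates. Since these come from 1 clone per line, the p-values measure only the spread within a clone.

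The members act as dimers. MYC and its paralogue MYCN bind DNA with MAX at E-boxes and activate genes for growth and ribosome production. MNT, MXD4 and MGA also dimerize with MAX, and they repress through SIN3 and HDAC proteins (MNT, MXD4) or within the Polycomb complex PRC1.6 (MGA), which in mESCs keeps germline genes silent. MLX is a MAX-like protein that can also pair with MNT and MXD4, which links both branches, and its partner MLXIP (MondoA) enters the nucleus when glucose 6-phosphate builds up and then activates Txnip and Arrdc4. TXNIP and ARRDC4 are alpha-arrestins, which lower glucose uptake by removing glucose transporters from the cell surface, and TXNIP also binds thioredoxin. In mESCs, MYC and MYCN sustain proliferation, and MGA and MAX restrain the germline programme.

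Libraries held between 40524694 and 40977464 counts, so that 0 counts in a library allows a level of up to 3 counts, by counting error only. Values below are normalized counts, that is counts scaled to the mean library by TMM factors. The log2 fold changes compare MUT_CTCF with WT_CTCF cells and are given with the standard error (SE) of the fit, and a gene passed at an adjusted p under 0.05 from edgeR's quasi-likelihood test over all tested genes. All 8 mESC markers were expressed, with summed normalized counts of 257858 to 259254 in the WT_CTCF and of 259182 to 260052 in MUT_CTCF libraries. Of these, Sox2 was higher in MUT_CTCF cells (adjusted p = 0.0358, edgeR) and the other 7 did not pass. At an unadjusted p under 0.05, 2 of the 8 were higher and 2 lower, against 7.61% and 7.65% of tested genes. The 8 log2 fold changes lay between -0.071 and 0.098. Ctcf itself had a log2 fold change of 0.044 (SE 0.028, adjusted p = 0.499 in the edgeR test), without a separation of endogenous from vector transcripts. Markers of other cell types were lower in sum. Of 6 primitive endoderm genes, 5 were tested and 0 passed. The 6 summed to 611 to 632 normalized counts in WT_CTCF and 660 to 844 in MUT_CTCF libraries. At an unadjusted p under 0.05, 2 of the 5 were higher and 0 lower, against 7.61% and 7.65% of tested genes. Their median log2 fold change was 0.37, with 4 of the 5 above 0. Of 6 feeder or fibroblast genes, 3 were tested and 0 passed, with Lum at 0 in all 4 libraries. These 6 summed to 860.4 to 885 in WT_CTCF and 952 to 1018 in MUT_CTCF libraries. Mesendoderm genes (5) summed to 929 to 955 and 843 to 889, neural genes (4) to 5.01 to 18.0 and 23.8 to 24.1, and trophectoderm genes (5, mostly Tcfap2c) overlapped between 4131 and 4358. Of these markers Cdx2 alone passed, with a log2 fold change of -0.97. Whether other cell types had a part in the results below was not tested.

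The promoters of the network were searched for the letters that MAX and MLX dimers are known to bind. The E-box CACGTG, which reads the same on both strands, was looked for in RefSeq promoters (GRCm38.p6, 250 bases before to 50 after the start). It was present in 5 of the 9 members with an entry (all but Myc), against 8.09% of 27025 genes. The 5 were Max, Mnt, Mxd4, Mlx and Arrdc4, that is both shared partners, the repressors Mnt and Mxd4 and an MLX target. These windows are shown with the E-box in capitals, 5′ to 3′ on the strand of the gene. They lie at chr12:76962234-76962263 (minus strand), chr11:74830789-74830818 (plus), chr5:34187912-34187941 (minus) and chr11:101087238-101087267 (plus).
Max: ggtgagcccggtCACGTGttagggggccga
Mnt: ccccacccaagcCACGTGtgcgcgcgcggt
Mxd4: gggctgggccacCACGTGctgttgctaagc
Mlx: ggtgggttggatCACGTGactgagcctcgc
The E-box began 3 bases before the start in Max, 40 in Mlx, 123 in Mnt and 219 in Mxd4. In Txnip no E-box was found in this window, but a tandem motif was, made of the letters CACGNG, any 5 bases and CACGNG again, the spacing known from carbohydrate response elements. Searched on both strands, it was present in 15 of the 27025 genes (0.0555%) and in no other member. Nor was it present in any gene with a promoter entry in the lists described below, the further targets of MLX partners among them. The 250 bases before the start are shown for Txnip (chr3:96557707-96557956, plus strand), with the tandem motif in capitals, and for Arrdc4 (chr7:68749239-68749488, minus strand), with the E-box in capitals, since these are the reporters of MLX.
Txnip: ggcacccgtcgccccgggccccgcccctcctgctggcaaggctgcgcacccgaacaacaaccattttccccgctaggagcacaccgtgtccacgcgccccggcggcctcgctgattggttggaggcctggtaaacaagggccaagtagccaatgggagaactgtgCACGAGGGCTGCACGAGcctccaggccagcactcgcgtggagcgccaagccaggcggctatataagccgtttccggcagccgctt
Arrdc4: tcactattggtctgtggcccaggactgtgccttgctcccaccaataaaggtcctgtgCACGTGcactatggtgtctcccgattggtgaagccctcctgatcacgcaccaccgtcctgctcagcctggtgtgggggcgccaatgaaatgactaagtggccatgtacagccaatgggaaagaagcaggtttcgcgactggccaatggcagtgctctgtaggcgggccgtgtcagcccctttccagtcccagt
The tandem motif began 85 bases before the start of Txnip and the E-box 193 bases before the start of Arrdc4. Mycn, Mga and Mlxip had neither motif in these windows. A match is a description of letters, and binding was not measured in these libraries.

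**Figure D1:**
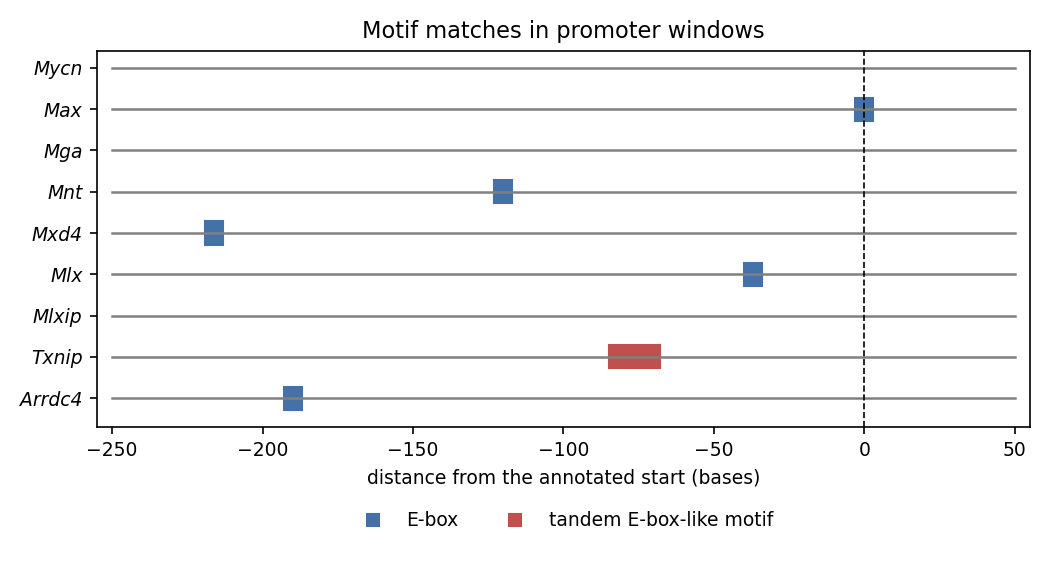
Motif positions in the promoter windows of the 9 members with a RefSeq entry, as distance in bases from the annotated start, from 250 before to 50 after it. Blue boxes are E-boxes, in Max, Mnt, Mxd4, Mlx and Arrdc4, and the red box is the tandem motif of Txnip, 85 bases before the start.

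Of the 10 genes, Myc alone passed. It was lower in MUT_CTCF cells, 0 members were higher, and the other 9 had log2 fold changes between -0.21 and 0.15. Among all tested genes, 1.61% were lower and 1.56% were higher at the same threshold. With library size as the only scaling, 260 tested genes were higher and 152 lower, against 253 and 262 with TMM, and Myc again was the only member that passed. By the criterion used in the study (fold change above 2 and unadjusted p under 0.05), 0 members were higher or lower, against 0.947% and 0.357% of tested genes. At an unadjusted p under 0.05, 2 members were higher (Txnip and Arrdc4) and 2 were lower (Myc and Max), against 7.61% and 7.65% of tested genes. The median log2 fold change of the 10 was -0.0093, and 0.0034 over all tested genes. The groups did not overlap in 6 members, 2 with MUT_CTCF higher (Txnip and Arrdc4) and 4 with MUT_CTCF lower (Myc, Max, Mga and Mxd4), where 22.3% of tested genes were separated in each direction.

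**Figure D2:**
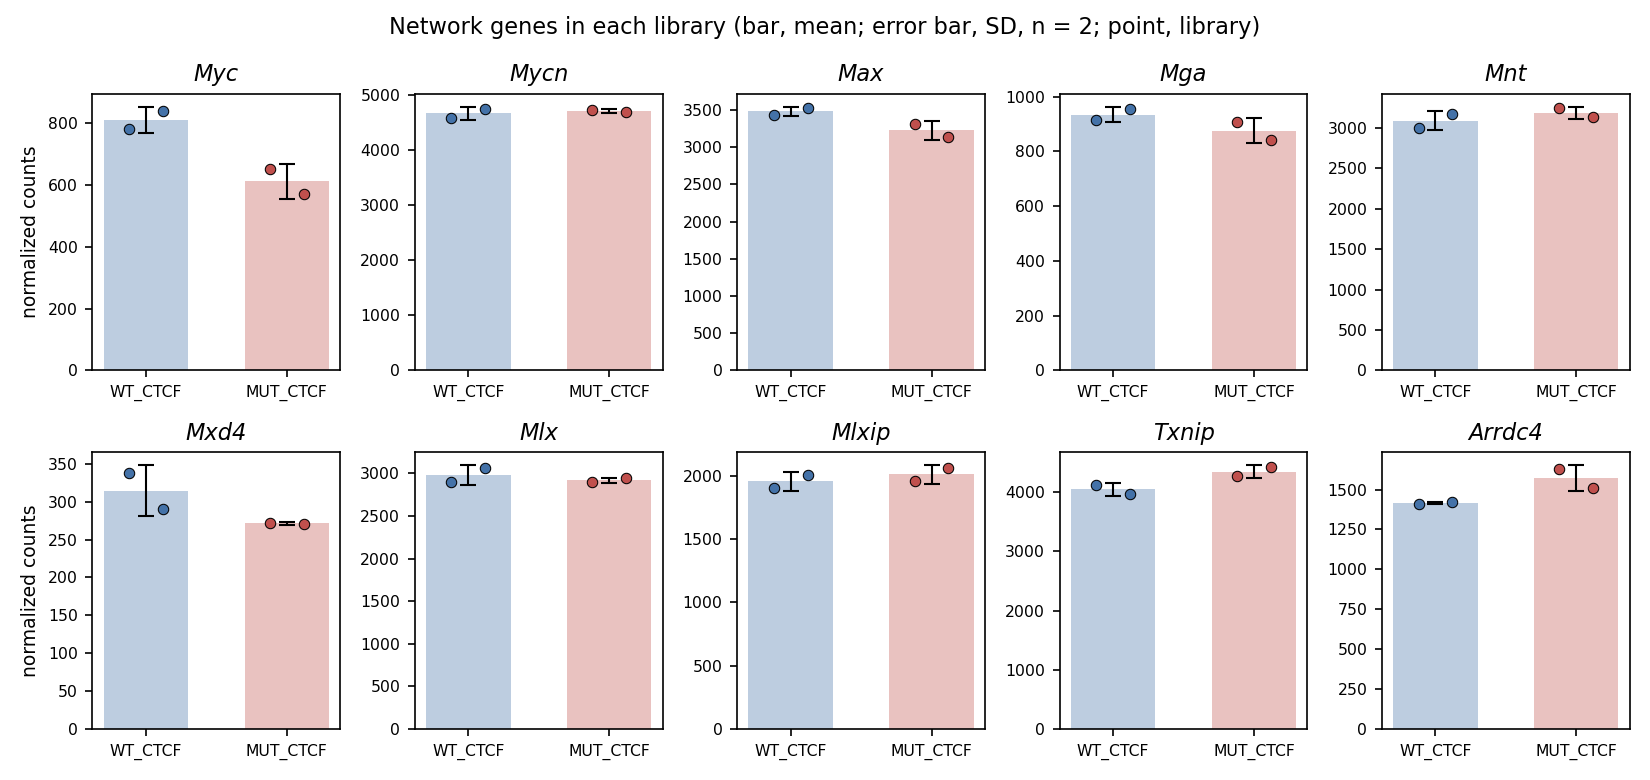
Normalized counts (vertical axes, each from 0) of the 10 genes in WT_CTCF (blue) and MUT_CTCF (red) mESCs. Bars are means, error bars SD (n = 2) and points the libraries. Myc shows the clearest separation, with 780.2 and 841 against 651 and 572 normalized counts.

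Among the activators, Myc (ENSMUSG00000022346, chromosome 15 of mm9, 61816946 to 61821929, plus strand) had 780.2 and 841 normalized counts in WT_CTCF and 651 and 572 in MUT_CTCF libraries. Both MUT_CTCF libraries lay below both WT_CTCF libraries. The mean went from 811 ± 42.9 to 612 ± 56.3 (SD, n = 2). Myc thus fell by 0.41 in log2 units (SE 0.101, 95% interval -0.61 to -0.20, adjusted p = 0.0115, edgeR), a change of -24.5%. By its p it ranked 237 among the tested genes, and 884 genes had a more negative log2 fold change. Each MUT_CTCF library set against each WT_CTCF library gave log2 ratios from -0.56 to -0.26. The call was lost when no genes were filtered out (adjusted p = 0.249), in DESeq2 without independent filtering (adjusted p = 0.159) or without WT_CTCF replicate 2 (log2 fold change -0.35, adjusted p = 0.145), and the adjusted p ran from 0.00283 to 0.495 over the alternatives. With either MUT_CTCF library left out (log2 fold change -0.50 without replicate 1 and -0.32 without replicate 2), 0 of all tested genes passed in edgeR.

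Mycn (ENSMUSG00000037169, chromosome 12, 12942902 to 12948720, minus strand), the paralogue that mESCs express at the higher level, had 4581 and 4746 normalized counts in WT_CTCF and 4728 and 4681 in MUT_CTCF libraries. The groups overlapped. Its log2 fold change was 0.013 (SE 0.044, 95% interval -0.076 to 0.10, adjusted p = 0.939, edgeR), so that a change between -5.10% and 7.24% lies within the interval. The intervals of Myc and Mycn did not overlap. Per kb of exon, Mycn exceeded Myc 4.85 and 4.66 times in WT_CTCF and 5.99 and 6.76 times in MUT_CTCF libraries. The share of Myc in the sum of both transcripts per kb was 17.1% and 17.7% in WT_CTCF and 14.3% and 12.9% in MUT_CTCF libraries. Their sum was 1715 ± 51.2 normalized counts per kb in WT_CTCF and 1654 ± 30.7 in MUT_CTCF cells (SD, n = 2), with highest and lowest libraries of 1751 and 1632. The separate libraries of that sum did not overlap, but were 1679 in the lower WT_CTCF and 1676 in the higher MUT_CTCF library.

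Max (ENSMUSG00000059436, chromosome 12, 78038256 to 78063235, minus strand), the partner shared by MYC, MYCN, MNT, MXD4 and MGA, had 3436 and 3526 normalized counts in WT_CTCF and 3315 and 3135 in MUT_CTCF libraries. Both MUT_CTCF libraries were lower. The log2 fold change was -0.11 (SE 0.051, 95% interval -0.21 to -0.0090), which did not pass (adjusted p = 0.281, edgeR). The adjusted p over its alternatives ran from 0.234 to 0.923.

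The repressors that dimerize with MAX did not pass. Mnt (ENSMUSG00000000282, chromosome 11, 74644422 to 74659227, plus strand), a broadly expressed antagonist of MYC, had 3005 and 3172 normalized counts in WT_CTCF and 3242 and 3136 in MUT_CTCF libraries. These overlapped, with a log2 fold change of 0.046 (SE 0.052, 95% interval -0.058 to 0.15, adjusted p = 0.759, edgeR). Mxd4 (ENSMUSG00000037235, chromosome 5, 34516536 to 34530369, minus strand), a MAD family repressor linked to cell cycle exit, was the scarcest member by count, with 339 and 291 normalized counts in WT_CTCF and 273 and 270.3 in MUT_CTCF libraries. Both MUT_CTCF libraries were lower. Its log2 fold change was -0.21, with the widest interval of the 10 (SE 0.149, 95% interval -0.51 to 0.087, adjusted p = 0.555, edgeR), and it was -0.099 to -0.32 over the alternatives. Mga (ENSMUSG00000033943, chromosome 2, 119722964 to 119795317, plus strand), the scaffold of PRC1.6, had 914 and 955 normalized counts in WT_CTCF and 909 and 843 in MUT_CTCF libraries. Both MUT_CTCF libraries were lower, though 909 lies close to 914, and the log2 fold change was -0.094 (SE 0.089, 95% interval -0.27 to 0.085, adjusted p = 0.695, edgeR).

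For the MLX branch, Mlx (ENSMUSG00000017801, chromosome 11, 100948591 to 100953521, plus strand) had 2899 and 3062 normalized counts in WT_CTCF and 2893 and 2940.0 in MUT_CTCF libraries, and Mlxip (ENSMUSG00000038342, chromosome 5, 123844807 to 123915306, plus strand) had 1903 and 2008 in WT_CTCF and 1958 and 2062 in MUT_CTCF libraries. In both genes the groups overlapped. The log2 fold change of Mlx was -0.031 (SE 0.053, 95% interval -0.14 to 0.075, adjusted p = 0.858, edgeR), and that of Mlxip was 0.040 (SE 0.063, 95% interval -0.087 to 0.17, adjusted p = 0.847, edgeR). Mlx shares 385 exon positions with Psmc3ip on the other strand, and whether counting used strand is not stated. Psmc3ip had 1023 and 1115 counts in WT_CTCF and 1129 and 1168 in MUT_CTCF libraries. Mlxip shares 264 exon positions with Gm15747, which had 0 counts in all 4 libraries.

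Of the glucose-induced targets of MLX, Txnip (ENSMUSG00000038393, chromosome 3, 96361880 to 96365806, plus strand) had 4127 and 3969 normalized counts in WT_CTCF and 4275 and 4427 in MUT_CTCF libraries. Both MUT_CTCF libraries were higher. The log2 fold change of 0.10 did not pass (SE 0.046, 95% interval 0.012 to 0.20, adjusted p = 0.26, edgeR). It stands for 7.48%, and 14.6% is the upper bound of the interval. Arrdc4 (ENSMUSG00000042659, chromosome 7, 75881931 to 75894127, minus strand) had 1411 and 1420.3 normalized counts in WT_CTCF and 1629 and 1512 in MUT_CTCF libraries. Here too both MUT_CTCF libraries were higher, and the log2 fold change of 0.15 did not pass (SE 0.071, 95% interval 0.0071 to 0.29, adjusted p = 0.304, edgeR). Neither gene passed under any alternative, with adjusted p from 0.187 to 0.883 for Txnip and from 0.261 to 0.99 for Arrdc4, and all log2 fold changes were above 0. The ratio of Txnip to Arrdc4 per kb was 3.85 and 3.68 in WT_CTCF and 3.45 and 3.85 in MUT_CTCF libraries and overlapped. Txnip shares 606 exon positions with Gm15441 on the other strand, which had 4 and 22 counts in WT_CTCF and 25 counts in each MUT_CTCF library.

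**Figure D3:**
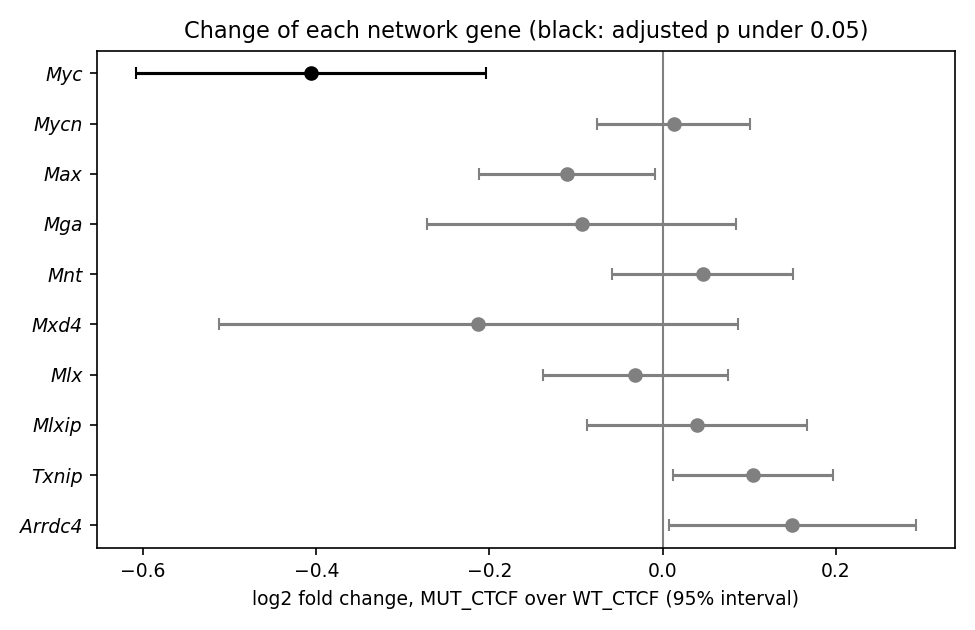
Log2 fold change of each gene in MUT_CTCF over WT_CTCF cells (horizontal axis), with 95% intervals from edgeR. Myc, in black, had an adjusted p under 0.05, and in grey the intervals of Max, Txnip and Arrdc4 exclude 0 before adjustment while those of the other 6 include it.

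Levels between genes were compared as normalized counts per kb of exon, with the merged exons of GENCODE M1 as length. In WT_CTCF cells Max was highest with 1736 ± 31.7 (SD, n = 2), followed by Mlx with 1491 ± 57.9, Mycn with 1417 ± 35.4 and Txnip with 1335.5 ± 36.7. Mnt had 668 ± 25.6, Arrdc4 355 ± 1.61, Myc 298 ± 15.8 and Mlxip 238 ± 9.01, while Mxd4 had 81.0 ± 8.72 and Mga 60.9 ± 1.88. The dimer partners MAX and MLX thus had the most abundant transcripts of the network in each library. In MUT_CTCF cells Max had 1608.5 ± 63.6, Mlx 1459 ± 16.7, Txnip 1435.5 ± 35.5 and Mycn 1429 ± 9.99. Over the 4 libraries, the ranges of Mycn and Txnip overlapped, as did those of Myc and Mlxip, while the other 7 neighbouring pairs in the order were apart. In MUT_CTCF replicate 2 both of these pairs changed places. Mlx and Mycn were narrowly apart, with 1447 in the lowest Mlx and 1442 in the highest Mycn library. Though not neighbours, Mlx and Txnip overlapped over the 4 libraries, since the highest Txnip library had 1461. The level of Max was 1.01 ± 0.012 times the sum of Myc and Mycn in WT_CTCF and 0.972 ± 0.020 times in MUT_CTCF cells (SD, n = 2).

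**Figure D4:**
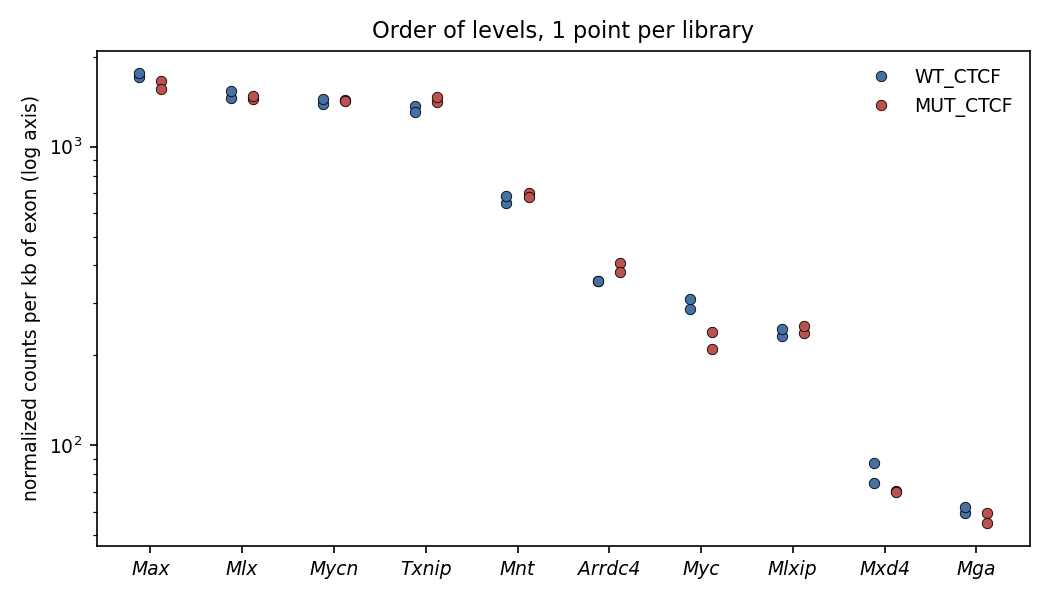
Normalized counts per kb of merged exons (vertical log axis) for the 10 genes in falling order, with 1 point per library, blue for WT_CTCF and red for MUT_CTCF. Max and Mlx lead, Mycn and Txnip overlap, and Mga is lowest in each library.

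The rest of the network was described with lists of genes, by counts and medians. Of the other factors with the same kind of DNA-binding and zipper domain, 14 genes in all, 13 were tested, 1 was higher and 0 were lower in edgeR, against 1.56% and 1.61% of tested genes (2 higher and 2 lower at an unadjusted p under 0.05). Srebf2, which drives sterol synthesis genes, rose by 0.11 in log2 units (SE 0.032, adjusted p = 0.0344, edgeR). Its call was lost in DESeq2, without a filter and with either WT_CTCF library left out. With either MUT_CTCF library left out all tested genes lost their calls. Usf1 (-0.11), Mycl1 (-0.15), the third MYC paralogue, and Srebf1 (0.082) had the next smallest p and did not pass. Mlxipl, which encodes ChREBP, the other glucose-sensing partner of MLX, had 556 and 579 normalized counts in WT_CTCF and 577 and 691 in MUT_CTCF libraries. Its log2 fold change of 0.16 did not pass (adjusted p = 0.539, edgeR).

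Another list held 22 cofactors and turnover factors of MYC and MNT, such as TRRAP, RUVBL and SIN3 proteins and ubiquitin ligases FBXW7 and HUWE1. Of these, 0 were higher and 0 were lower in edgeR, against 1.56% and 1.61% of tested genes. The count at an adjusted p was also 0 in DESeq2. At an unadjusted p under 0.05, 0 were higher and 4 lower (18.2%), against 7.61% and 7.65% of tested genes. The median gene of the list stood above 93.3% of tested genes in level. For the unadjusted threshold the share within its range of levels was not computed. Among the genes of smallest p were the co-repressor Ncor1 (-0.088), the histone methyltransferase subunit Wdr5 (-0.062) and Sin3b (-0.074). Each had both MUT_CTCF libraries below both WT_CTCF libraries, as had 22.3% of all tested genes. The median of the list was -0.041, against -0.016 for genes within its range of levels, and it was -0.022 without MUT_CTCF replicate 1 and -0.025 without WT_CTCF replicate 1.

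Of 11 subunits of the MGA complex, 0 passed in edgeR or DESeq2, where 1.56% of tested genes were higher and 1.61% lower in edgeR. At an unadjusted p under 0.05 there were also 0, against 7.61% and 7.65% of tested genes. The log2 fold changes lay between -0.058 (L3mbtl2) and 0.059 (Yaf2). Tfdp2 (-0.048) and Rnf2 (-0.031), the ubiquitin ligase of the complex, were the other genes of smallest p. Of 10 germline genes known as targets of this complex, 1 was higher and 0 were lower, against 1.56% and 1.61% of tested genes. Stag3, a meiotic cohesin subunit, had 2957 and 3075 normalized counts in WT_CTCF and 3283 and 3560.0 in MUT_CTCF libraries, a rise of 0.18 in log2 units (SE 0.052, adjusted p = 0.0363, edgeR). This call too was lost in DESeq2, without a filter and with either WT_CTCF library left out. With either MUT_CTCF library left out all tested genes lost their calls. Mael (0.21), Slc25a31 (-0.27) and Ddx4 (0.27) did not pass. In 7 of the 10 (70.0%) the log2 fold change was below 0, against 46.3% of the genes within the range of levels of the list. The median was -0.0996, and 0.050 without MUT_CTCF replicate 2. An E-box was present in the promoter window of 7 of these 10 genes, against 8.09% of all genes. The genes were listed as known targets of a complex with MAX, so this share is not independent of their choice. The E-box of Stag3 is shown because the gene passed (chr5:138280327-138280356 of GRCm38.p6, plus strand, E-box in capitals).
Stag3: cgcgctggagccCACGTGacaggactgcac

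Genes that MYC is known to activate in growth and ribosome production had mostly negative log2 fold changes, by a small amount. Of 54 such genes, all tested, 6 were lower and 0 were higher in edgeR, which is 11.1% of the list, against 1.61% of all tested genes and 3.01% of the 8029 genes within the range of levels of the list. At an unadjusted p under 0.05, 22 were lower (40.7%) and 1 was higher (1.85%), against 7.65% and 7.61% of all tested genes. For this threshold the share within the range of levels was not computed. In 44 of the 54 (81.5%) the log2 fold change was below 0, as it was in 55.5% of the genes within that range of levels. The median was -0.058, against -0.013 for those genes, and from -0.069 to -0.040 when single libraries were paired. Npm1, a nucleolar histone chaperone, had 47604 and 46316 normalized counts in WT_CTCF and 43096 and 40459 in MUT_CTCF libraries, and fell by 0.17 in log2 units (SE 0.025, adjusted p = 3.83e-06, edgeR). Its reads could be shared with processed copies elsewhere in the genome. Wdr43 (-0.17, adjusted p = 0.0140) and Nop2 (-0.12, adjusted p = 0.0142), both needed for ribosomal RNA maturation, and the replication helicase subunit Mcm5 (-0.085, adjusted p = 0.0178) were the next in edgeR. Nucleolin, Ncl (-0.097), and the mitochondrial co-chaperonin Hspe1 (-0.11) were the other genes that passed, and Hspe1 shares 112 exon positions with Hspd1. The count of lower genes was 3 with library size only, 3 in DESeq2 without independent filtering and 0 without a filter. Leaving out WT_CTCF replicate 1 or WT_CTCF replicate 2 gave fewer lower genes. Leaving out either MUT_CTCF library cannot show this for the list, since all tested genes then lost their calls. An E-box was present in 13 of the 47 genes of the list with a promoter entry, against 8.09% of all genes. This share too is not independent of the choice of genes, which were listed as activated by MYC. Npm1 had no entry and was not searched. Nop2 and Wdr43 were the genes that passed with an E-box, which lay before the start in Nop2, shown here, and after it in Wdr43 (chr6:125131811-125131840 of GRCm38.p6, plus strand for Nop2, E-box in capitals).
Nop2: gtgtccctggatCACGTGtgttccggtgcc

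Of 17 further targets of MLX partners, mostly genes of fat and fructose metabolism, 14 were tested. Of these, 1 was higher and 0 were lower, against 1.56% and 1.61% of tested genes. The call was lost without a filter. It was also lost without either MUT_CTCF library, as were the calls of all tested genes. At an unadjusted p under 0.05, 5 were higher (35.7%) and 0 were lower, against 7.61% and 7.65% of tested genes. Fasn, the fatty acid synthase, had 51498 and 53455 normalized counts in WT_CTCF and 57895 and 60944 in MUT_CTCF libraries, a rise of 0.18 in log2 units (SE 0.023, adjusted p = 1.94e-07, edgeR). Klf10 (0.15, adjusted p = 0.105, edgeR), Acaca (0.14) and Acly (0.053) did not pass. Fasn, Acaca, Acly and Me1 are also known targets of SREBP proteins, so this list does not separate both kinds of factor. The median of the list was 0.12, with 10 of 14 above 0, and 0.059 without MUT_CTCF replicate 2. Of the 14 genes of the list with a promoter entry, 2 had an E-box (14.3%), against 8.09% of all genes, and 0 had the tandem motif.

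Among 16 alpha-arrestins and partners of TXNIP, 2 were higher and 1 was lower in edgeR, against 1.56% and 1.61% of tested genes, and 3 were higher and 3 lower at an unadjusted p under 0.05, against 7.61% and 7.65%. Ddit4, a stress-induced inhibitor of mTORC1 that binds TXNIP, had 2527 and 2572 normalized counts in WT_CTCF and 3489.6 and 3895 in MUT_CTCF libraries (log2 fold change 0.53, SE 0.054, adjusted p = 9.79e-11, edgeR). Slc2a1, which encodes the glucose transporter GLUT1 that TXNIP removes from the cell surface, had 6107 and 6083 in WT_CTCF and 8448 and 8384 in MUT_CTCF libraries. It rose by 0.47 (SE 0.037, adjusted p = 2.24e-14, edgeR), and shares 105 exon positions with Gm12868. The calls of Ddit4 and Slc2a1 were lost with either MUT_CTCF library left out, as were those of all other tested genes. Txn1, the thioredoxin that TXNIP inhibits, fell by 0.12 (SE 0.036, adjusted p = 0.0412, edgeR), a call lost in DESeq2, without a filter, with library size only and with any library left out. Txnrd1, its reductase, was at -0.090 and did not pass (adjusted p = 0.0775, edgeR), although with the replicate block 2 genes of this list were lower. The other alpha-arrestins, Arrdc1 (0.17), Arrdc2 (0.14), Arrdc3 (0.033) and Arrdc5 (0.24), did not pass. An E-box was present in 0 of the 14 genes of this list with a promoter entry. In the remaining lists it was present in 1 of 12 other bHLH-zipper factors, 1 of 19 cofactors and turnover factors and 1 of 9 MGA complex subunits.

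**Figure D5:**
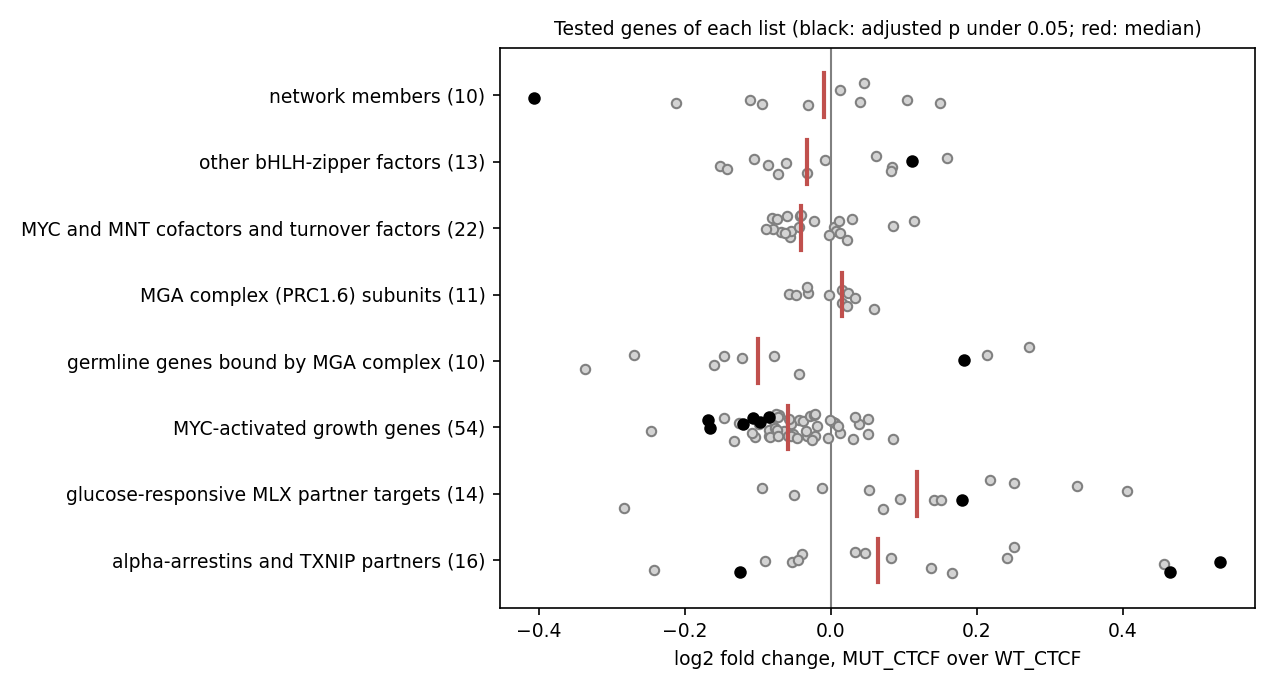
Log2 fold changes in MUT_CTCF over WT_CTCF cells (horizontal axis) of the tested genes of each list, with their number in parentheses. Black points had an adjusted p under 0.05 in edgeR, and red lines are list medians, at -0.058 for MYC-activated growth genes and 0.12 for glucose-responsive targets of MLX partners.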

How the data were processed

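RNA-seq libraries of WT_CTCF and MUT_CTCF mESCs (2 each) were analysed. After trimming with Trim Galore 0.4.4, the authors aligned reads to mm9 with STAR and counted uniquely mapped reads per gene with HTSeq 0.9.1 (versions per the labels), and deposited raw counts. The strand setting and the annotation release are not given in the sources used here. A second deposited table holds the authors' own edgeR comparison (fold changes, average expression, p-values and false discovery rates) and was not used. Groups and replicate numbers came from the sample titles.

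GENCODE M1 (NCBIM37, the mm9 assembly) named 37205 of 37620 gene identifiers. Genes were filtered by edgeR's filterByExpr (minimum count 10), scaled by TMM and tested with glmQLFit and glmQLFTest (edgeR 4.0.16, R 4.3.3) with condition as the only term, and p-values were adjusted over 16264 genes (Benjamini-Hochberg). The standard error is the log2 fold change divided by the root of F. With 2 libraries per group the smallest two-sided p of an exact permutation test is 0.333, and the spread used was the one edgeR shares among genes. The members, the lists and the rule for named genes (the 10 members, the 4 genes of smallest p per list, and genes a result turns on) were chosen with earlier results of these data known, and some listed genes are not reported here. Same-numbered libraries did not deviate together (r = -0.019 across genes). The fits were also run on counts simulated with the means, library sizes and dispersions estimated from these data. Such a simulation cannot show whether those dispersions are right.

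Alternatives were DESeq2 1.42.0, its size factors, library size only, no filter, a block for the replicate number and leaving out each library, and DESeq2 without independent filtering was added after seeing the data. Promoters came from RefSeq (GRCm38.p6).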

Additional observations from a re-analysis of the deposited data

How the results depend on the processing

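Over 10 alternatives, 97 member values were computed, and 90 kept their direction and their side of the threshold. 2 signs changed, that of Mycn without WT_CTCF replicate 1 (-0.013) and that of Mlx without WT_CTCF replicate 2 (0.0078), both far from the threshold. With a library left out, log2 fold changes ran from -0.013 to 0.037 for Mycn and from -0.071 to 0.0078 for Mlx. DESeq2 with independent filtering gave 3 members, Myc among them, no adjusted p. Members lower at an adjusted p under 0.05 numbered 0 without a filter and 0 in DESeq2 without independent filtering, and from 0 to 1 with a library left out. Myc kept its sign in each alternative, with log2 fold changes from -0.50 to -0.32.

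Among all tested genes, 253 were higher and 262 lower in edgeR. Without a filter these were 26 and 3, in DESeq2 117 higher, in DESeq2 without independent filtering 89 and 96, and with library size only 152 lower. With a library left out, from 0 to 140 were higher and from 0 to 102 were lower, and at the study criterion from 102 to 234 were higher. Leaving out a MUT_CTCF library left 0 calls in edgeR at an adjusted p, with 787 higher and 864 lower (without replicate 1) or 688 and 897 (without replicate 2) at an unadjusted p under 0.05, so that a call lost there says nothing about a single gene. In these fits the lone library is assumed to vary like the other group.

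Among the lists, the counts that moved were these. The single higher gene of the bHLH-zipper factors and that of the germline genes were 0 without a filter and 0 in DESeq2 with or without independent filtering, and 0 with any library left out. That of the glucose-responsive targets was 0 without a filter, and 0 to 1 with a library left out. Lower MYC-activated genes were 3 with library size only, 0 without a filter, 3 in DESeq2 without independent filtering and 0 to 1 with a library left out. Among alpha-arrestins and TXNIP partners, 0 were lower with library size only, without a filter and in DESeq2 with or without independent filtering, and 0 with any library left out, while higher genes ran from 0 to 2 with a library left out.

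The replicate block gave 326 higher and 372 lower genes, and 2 lower genes among alpha-arrestins and TXNIP partners. It kept Myc past the threshold (adjusted p = 0.00283, edgeR). Since the numbers do not pair the libraries, the block has no meaning beyond a shared number. Medians of the MYC-activated genes stayed below 0 (-0.065 to -0.043), those of the cofactors below 0 (-0.043 to -0.022) and those of the glucose-responsive targets above 0 (0.059 to 0.13) in each alternative, while those of the members (-0.042 to 0.023), the other bHLH-zipper factors (-0.056 to 0.046), the MGA subunits (-0.0068 to 0.029), the germline genes (-0.11 to 0.050) and the TXNIP partners (-0.022 to 0.091) changed sign. With 2 libraries per line, changes of a few percent could not be resolved for genes as low as Mxd4.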

Other observations

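The tested genes next to each member on the chromosome, 1 per side by the middle of the gene, were looked up after the values of the members had been seen. Of these 20 neighbours, 0 passed in edgeR, against 1.56% of tested genes higher and 1.61% lower. At an unadjusted p under 0.05 there were 2, against 7.61% of tested genes higher and 7.65% lower. They were Fntb beside Max (log2 fold change -0.13, adjusted p = 0.17, edgeR) and Tyro3 beside Mga (0.094, adjusted p = 0.309, edgeR). In Pvt1, the noncoding neighbour of Myc, raw counts were 224 and 197 for WT_CTCF and 225 and 183 for MUT_CTCF libraries, and the groups overlapped. Its log2 fold change was -0.052 (adjusted p = 0.938, edgeR), and its difference from that of Myc was not tested. On the other side of Myc, 9930014A18Rik had at most 17 counts. Hfe2, before Txnip, had a log2 fold change of 0.96 on counts of 16 to 52 and did not pass. Gm15441, counted here as the gene after Txnip, spans Txnip on the other strand and shares 606 exon positions with it, so that reads of both cannot be told apart without strand (log2 fold change 0.93 on counts of 4 to 25, not passed).

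Ncl, Npm1 and other growth genes in the MYC list are among the most abundant transcripts of these cells. The median gene of the list stood above 93.2% of all tested genes in level, and Myc above 54.2% of them.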
